A study of Mus musculus with 4 samples.

Results

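Small leucine-rich proteoglycans are secreted proteins built from leucine-rich repeats, most of which carry glycosaminoglycan chains. The 7 genes described here are Lum, Dcn, Bgn, Ogn, Fmod, Prelp and Aspn, taken by symbol from the deposited table of 40630 genes, in which all 7 were found. RNA was measured in 4 libraries of E13.5 cortex from C57BL/6 mice, a tissue that the series' design text calls neocortex. The group of interest held replicates 4 and 5, labelled Upf2fl/fl with Emx1-Cre and called cKO-labelled below. The controls were replicates 8 and 9, Upf2fl/+ without Cre, so they carry 1 floxed allele, and the series describes them as littermates. Cre presence and the number of floxed alleles therefore differ together. Emx1-Cre acts in the dorsal telencephalon and its descendants, and the cells without it keep an intact gene. Upf2, an adaptor of nonsense-mediated decay, had 27.8 and 42.2 TPM (transcript counts scaled by gene length and library total) in libraries labelled cKO and 23.7 and 41.3 TPM in the controls, a whole-gene value that does not check a deletion of part of the gene.

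The family binds collagen fibrils and sets their spacing and width. It also holds growth factors in the matrix. Class I members (Dcn, Bgn and Aspn) include carriers of chondroitin or dermatan sulfate, and class II members (Lum, Fmod and Prelp) include carriers of keratan sulfate. Ogn, also called osteoglycin or mimecan, belongs to class III. In and around the developing brain these genes are known from fibroblasts of the meninges, the membranes over the cortex, and from vessel-associated and skeletal mesenchyme, and not as products of cortical neurons. The labels do not say whether meninges were removed from the dissected cortex.

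All members but Bgn fall into chromosomal clusters. Promoters are shown because members that fell in the same libraries had start regions of different GC content. The neighbours Fmod and Prelp were close to each other in it. RefSeq promoter records of build GRCm38.p6, from 250 bases before to 50 bases after the start, matched 5 of the 7 members, namely Ogn, Bgn, Fmod, Prelp and Aspn. The windows printed 5′ to 3′ on the gene's strand are those of Ogn (chr13:49607765-49608064, plus strand), Bgn (chrX:73483351-73483650, plus strand), Fmod (chr1:134037004-134037303, plus strand) and Prelp (chr1:133921352-133921651, minus strand). Capitals mark, on either strand, the TATA-box letters TATAAA, the SP1 core GGGCGG, the AP-1 letters TGANTCA, the forkhead letters GTAAACA and the TEAD core GGAATG.
Ogn: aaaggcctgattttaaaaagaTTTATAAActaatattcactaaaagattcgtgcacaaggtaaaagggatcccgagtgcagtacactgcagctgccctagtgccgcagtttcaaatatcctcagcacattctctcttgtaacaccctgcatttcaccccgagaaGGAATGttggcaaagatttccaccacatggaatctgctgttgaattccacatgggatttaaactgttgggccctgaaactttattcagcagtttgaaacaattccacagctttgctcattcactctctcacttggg
Bgn: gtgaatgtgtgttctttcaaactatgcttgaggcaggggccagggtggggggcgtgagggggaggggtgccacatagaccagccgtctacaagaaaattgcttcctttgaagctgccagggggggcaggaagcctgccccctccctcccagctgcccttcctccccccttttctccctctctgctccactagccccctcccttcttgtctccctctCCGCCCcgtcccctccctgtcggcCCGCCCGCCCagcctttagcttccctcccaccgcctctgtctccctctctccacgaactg
Fmod: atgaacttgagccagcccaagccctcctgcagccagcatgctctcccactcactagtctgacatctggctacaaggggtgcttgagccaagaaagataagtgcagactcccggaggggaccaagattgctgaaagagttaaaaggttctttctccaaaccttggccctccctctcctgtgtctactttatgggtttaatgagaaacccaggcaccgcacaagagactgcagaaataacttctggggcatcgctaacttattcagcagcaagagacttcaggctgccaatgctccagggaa
Prelp: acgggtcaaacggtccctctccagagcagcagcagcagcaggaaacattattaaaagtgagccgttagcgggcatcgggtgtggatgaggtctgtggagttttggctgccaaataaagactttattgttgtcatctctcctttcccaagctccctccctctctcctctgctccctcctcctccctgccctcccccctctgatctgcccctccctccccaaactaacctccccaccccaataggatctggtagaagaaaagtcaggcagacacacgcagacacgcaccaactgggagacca

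The Ogn window had a GC content of 42.3%, against 63.7% for Bgn, 51.0% for Fmod, 55.3% for Prelp and 31.0% for the unprinted Aspn window, and the median of 32851 promoter records was 52.7%. In Ogn the TATA-box letters occurred on both strands in overlapping matches that began 229 and 227 bases before the start, far from the usual place of a TATA box. Ogn also held the TEAD core 86 bases before the start. In Bgn the SP1 core was matched on the other strand 34, 10 and 6 bases before the start, the last pair overlapping. The printed Fmod and Prelp windows held none of the 5 motifs in capitals. The TATA-box letters occurred in 13.6% of all promoter records and in 2 of the 5 members (Aspn and Ogn), the TEAD core in 14.7% and 1 member, and the SP1 core in 35.7% and 1 member. The AP-1 letters (7.81% of records) and the forkhead letters (3.65%) were in none of the 5 members, and the E-box letters CANNTG, not capitalised, was in all 5 and in 72.3% of records. These are matches of letters in 1 window, not binding sites.

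The TPM steps gave back 33537843 to 36453920 reads for a library labelled cKO and 38274835 to 41680052 for a control. Nothing in the labels ties a library to its own embryo, so the p-values measure the spread between these libraries, which may be technical. Control replicate 9 stood apart from control replicate 8 by GC content. Across 14956 tested genes, the log2 ratio of control replicate 8 over 9 had a Spearman correlation of 0.75 with gene GC content, as a description in which all genes share the same pair of libraries. The limma fit estimated an infinite prior, so each standard error (SE) below is the spread pooled over genes of like level, not that of the gene's own replicates. With each gene's own spread alone, 0 of 15107 genes passed limma's adjusted threshold and 1269 had an unadjusted p under 0.05.

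All 6 members that could be tested fell in libraries labelled cKO, with log2 fold changes between -5.70 for Lum and -1.44 for Bgn and a median of -2.90, against -0.16 over all 15107 tested genes. The 6 calls (limma, adjusted p under 0.05, mean TPM of at least 1) stand against a background of 5.24% of tested genes called lower, 2.9% called higher and 8.14% called in either direction. Lum, Dcn, Fmod, Ogn and Prelp reached that minimum only through the controls, with means of 0.0708 to 0.913 TPM in libraries labelled cKO. At such levels a gene could enter the test only with higher controls, so the direction of these calls is not independent of the filter. With no filter on low TPM, 3 members were called. The lists below hold genes of this kind too. A call with a log2 fold change under -2 was made for 5 members (all but Bgn) and for 0.993% of tested genes. In all 7 members both cKO-labelled libraries lay below both controls, which was so for 30.7% of all genes detected in any library. Summed over the 7 members, the level was 10.4 and 9.73 TPM in libraries labelled cKO and 149.5 and 116.1 TPM in the controls. In bulk RNA, fewer cells of a type and less RNA per cell cannot be told apart.

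Lum encodes lumican, a keratan sulfate proteoglycan that regulates fibril assembly in cornea and other connective tissue (ENSMUSG00000036446.5, chromosome 10, 97565128 to 97572703 in GRCm38). It was counted by 6 reads and 1 read in libraries labelled cKO against 1734 and 1635 reads in the controls, or 0.24 and 0.0370 TPM against 55.5 and 60.3 TPM. The groups stood far apart, and the controls were close to each other. The log2 fold change, taken on mean log2(TPM + 1) with controls subtracted, was -5.70 ± 0.39 (SE, n = 2 each; limma adjusted p = 1.39e-44), the second lowest of all tested genes. The pseudocount of 1 shrinks changes of low genes. From pooled reads, Lum was 429-fold lower, with an exact 95% interval of 208 to 1070 that, like the other read-based intervals here, covers counting error only.

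Prelp, whose protein binds heparan sulfate and collagen and anchors basement membranes to connective tissue, lies on chromosome 1 (ENSMUSG00000041577.5, 133910304 to 133921414). Its level was 0.271 and 1.55 TPM in libraries labelled cKO and 15.5 and 9.36 TPM in the controls, from 10 and 62 reads against 717 and 375. The cKO-labelled replicate 5 kept clearly more Prelp than replicate 4, and both stayed below the controls. The log2 fold change was -2.86 ± 0.37 (SE, limma adjusted p = 3.46e-12), and pooled reads were lower by a factor between 10.6 and 17.4 (exact 95% interval).

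Fmod encodes fibromodulin, which competes with lumican for a site on type I collagen (ENSMUSG00000041559.7, chromosome 1, 134037254 to 134048277). It had 0.0593 and 0.0822 TPM in libraries labelled cKO, from 2 and 3 reads, against 13.7 and 1.86 TPM in the controls, from 579 and 68 reads. The groups did not overlap, but the controls were farther apart from each other than for any other member. The log2 fold change was -2.60 ± 0.34 (SE, limma adjusted p = 3.26e-12), and pooled reads were 115-fold lower (49.1 to 356). The value rested on the control used, at -1.42 against replicate 9 alone and -3.78 against replicate 8 alone, and the call held in both fits.

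Dcn encodes decorin, the class I proteoglycan that decorates collagen fibrils and binds transforming growth factor beta (ENSMUSG00000019929.16, chromosome 10, 97479609 to 97518143). Its level was 0.101 and 0.202 TPM in libraries labelled cKO and 20.2 and 20.1 TPM in the controls, from 6 and 13 reads against 1503 and 1302. The controls were nearly equal. The log2 fold change was -4.20 ± 0.37 (SE, limma adjusted p = 2.46e-26), place 15 from the lowest of 15107 genes, and pooled reads were 132-fold lower (84.1 to 219).

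Bgn encodes biglycan, the closest relative of decorin and a ligand of the innate receptors TLR2 and TLR4 (ENSMUSG00000031375.17, chromosome X, 73483602 to 73495933). It had 9.67 and 7.68 TPM in libraries labelled cKO, from 601 and 517 reads, against 36.4 and 17.2 TPM in the controls, from 2835 and 1164 reads. Bgn was still counted by more than 500 reads in each library labelled cKO, and their mean TPM was 32.4% of the control mean. The log2 fold change was -1.44 ± 0.38 (SE, limma adjusted p = 0.00452), and pooled reads were 3.17-fold lower (2.97 to 3.39). Leaving out cKO-labelled replicate 4 ended the call (limma adjusted p = 0.766), and so did leaving out replicate 5 (0.738), fits in which the control pair alone supplies the spread. Over the 15 alternatives the adjusted p ranged from 0.00202 to 0.766. Against control replicate 9 alone the log2 fold change was -0.92, and against replicate 8 alone it was -1.96, and the call held in both. Bgn is X-linked and the embryos' sexes are not labelled. Xist, the transcript of the inactive X, was low in all 4 libraries, at 0.312 and 0.338 TPM in libraries labelled cKO and 0.266 and 0.463 TPM in the controls. Y-linked genes were counted in all 4 libraries, such as Eif2s3y at 22.7 and 35.8 TPM in libraries labelled cKO and 42.1 and 65.3 TPM in the controls. Of 4 tested Y-linked genes limma called 1 lower and none higher.

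Aspn encodes asporin, a class I member with an aspartate-rich stretch that is known from periosteum and cartilage (ENSMUSG00000021388.14, chromosome 13, 49544443 to 49567565). It had 0 reads in both cKO-labelled libraries against 9 and 7 reads in the controls, which is 0.299 and 0.268 TPM. It was barely present even in controls and stayed under the minimum for the test. Its pooled control level was 4.75-fold above a floor of 3 reads over the cKO-labelled pair (0.0601 TPM). That ratio leaves out the counting error of the controls and is not a bound.

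Ogn encodes osteoglycin, a class III member first known from bone and also made by meningeal fibroblasts (ENSMUSG00000021390.6, chromosome 13, 49608046 to 49624501). It had 0.0382 and 0.177 TPM in libraries labelled cKO, from 1 and 5 reads, against 7.91 and 7.03 TPM in the controls, from 259 and 200 reads. Both cKO-labelled values rested on a handful of reads, and the controls were close. The log2 fold change was -2.94 ± 0.35 (SE, limma adjusted p = 9.52e-15), and pooled reads were 68.1-fold lower (31.1 to 187). The unrelated gene Cenpp overlaps Ogn, Aspn, Ecm2 and Omd on the opposite strand. Cenpp had 9.87 and 13.3 TPM in libraries labelled cKO and 14.0 and 27.6 TPM in the controls, and since the strand setting of the counting is not given in the sources used here, reads of the overlap may be shared.

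**Figure D1:**
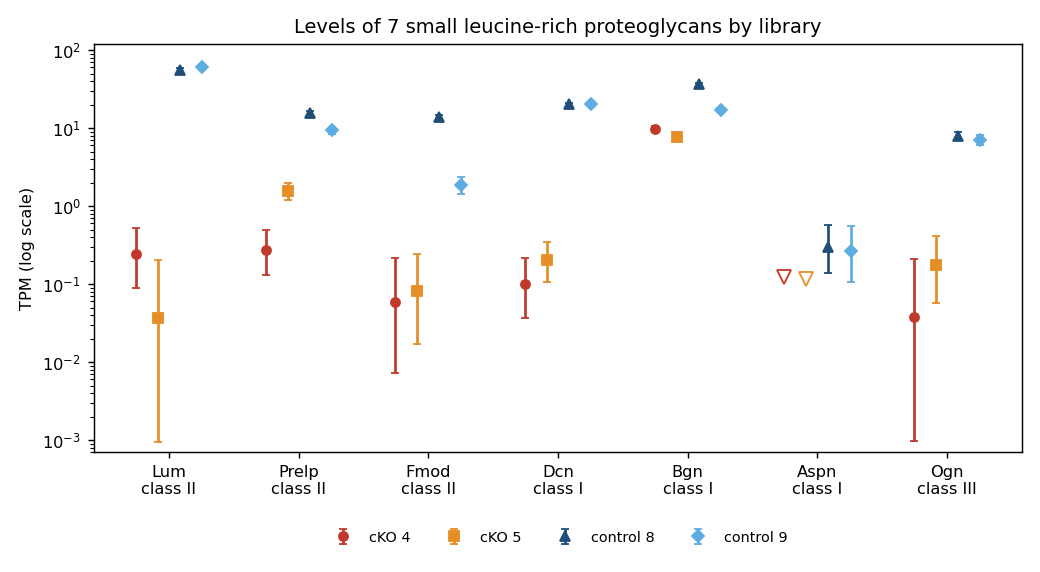
TPM on a log axis of the 7 members, grouped by class, in cKO-labelled replicates 4 and 5 (red circles, orange squares) and control replicates 8 and 9 (dark triangles, light diamonds). Bars are exact 95% Poisson intervals of the recovered reads, and open triangles mark 0 reads, drawn at the level of 3 reads. Bgn, at 9.67 and 7.68 TPM, is the only member whose cKO-labelled libraries are both above 2 TPM.

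With each gene's own spread (2 residual degrees of freedom), 4 of the 6 tested members had an unadjusted p under 0.05 in limma without moderation. By that limma fit they were Dcn (unadjusted p = 0.000227), Lum (0.00062), Ogn (0.00158) and Prelp (0.042). In the same limma fit Bgn (unadjusted p = 0.116) and Fmod (0.159), the members whose controls differed most from each other, did not reach it. None of the 6 passed after adjustment over all tested genes in that fit, in which no gene did.

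The make-up of the family also differed between the groups. Bgn supplied 93.2% and 78.9% of the summed member TPM in libraries labelled cKO and 24.4% and 14.8% in controls. Lum supplied 2.32% and 0.38% in libraries labelled cKO and 37.1% and 51.9% in controls, where it was the most abundant member in both libraries. Prelp supplied 2.62% and 16% in libraries labelled cKO and 10.4% and 8.06% in controls. Without Bgn the members summed to 0.710 and 2.05 TPM in libraries labelled cKO and 113.1 and 98.9 TPM in the controls. Aspn was the lowest member in all 4 libraries.

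In libraries labelled cKO, Bgn came first and Prelp second in both replicates. Below them Dcn stood above Fmod and Ogn in both replicates, while Lum, Fmod and Ogn changed places. The counting intervals of Dcn, Fmod and Ogn overlapped in each of these libraries, so these levels are not told apart at this depth. In cKO-labelled replicate 4 Prelp rested on 10 reads, and its interval (0.130 to 0.499 TPM) overlapped that of Lum (0.0882 to 0.523 TPM). The second place of Prelp is thus told apart only in replicate 5. In controls Lum came first in both replicates. Bgn and Dcn changed places between the control replicates, as did Fmod and Ogn, while Prelp ranked below those 3 and above the rest in both.

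**Figure D2:**
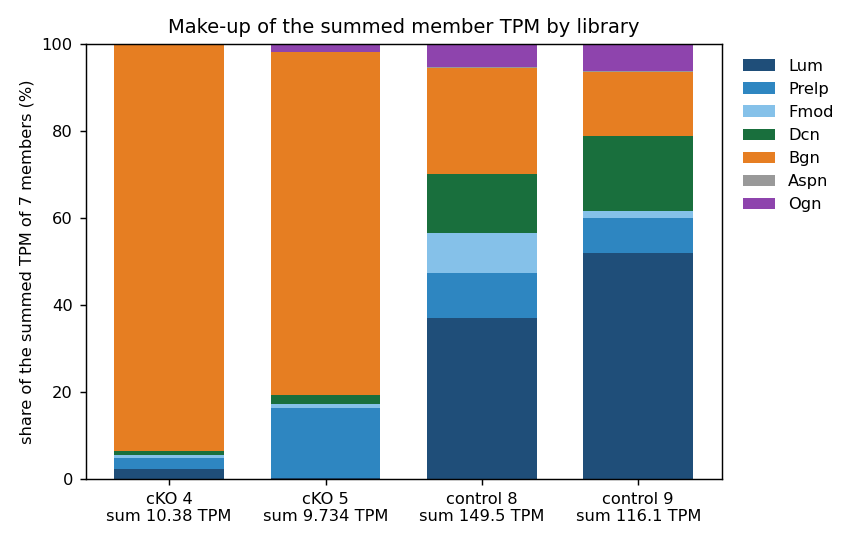
Share of the summed TPM of the 7 members, in percent from 0 to 100, with 1 bar for each library and cKO-labelled libraries on the left. Bgn (orange) makes up 93.2% and 78.9% of the cKO-labelled bars and 24.4% and 14.8% of the control bars, and Lum (dark blue) 37.1% and 51.9% of the control bars.

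The control pair differed by member. Control replicate 8 over 9 gave a TPM ratio of 7.39 for Fmod, 2.11 for Bgn and 1.66 for Prelp. The mean GC contents of their transcripts are 55.7%, 52.3% and 54.7%. The TPM ratio was 1.12 for Ogn and for Aspn, 1.00 for Dcn and 0.921 for Lum, whose GC contents lie between 34.3% and 42.4%. Tested genes with a GC content of 52 to 56% had a median log2 ratio of 0.29 (3425 genes), and those of 34 to 43% had -0.86 (1571 genes). On that scale Fmod stood at 2.89 and Lum at -0.12, both above the median of their GC range. The collagen genes Col1a1, Col1a2 and Col3a1, made by the same kinds of fibroblast, had ratios of 3.55, 3.16 and 1.98. The part of GC content in these ratios was not tested member by member. After removal of the GC trend all 6 tested members were still called lower, at fold changes of -5.16 (Lum) to -1.38 (Bgn).

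Among the other 11 family genes, 3 reached the minimum for the test, of which 1 fell and none rose. Optc, encoding opticin of the eye's vitreous, had 3.96 and 7.6 TPM in libraries labelled cKO and 19.2 and 16.3 TPM in the controls. The groups did not overlap, and the log2 fold change was -1.52 ± 0.39 (SE, limma adjusted p = 0.00299). The Optc call ended without cKO-labelled replicate 4 (log2 fold change -1.12) or 5 (-1.91). Tsku, encoding the Wnt and TGF-beta modulator tsukushi, had 23.8 and 23.6 TPM in libraries labelled cKO and 32.0 and 16.5 TPM in the controls (0.04 ± 0.37, limma adjusted p = 0.956), so the controls enclosed the cKO-labelled values. Its direction turned to -0.42 without control replicate 9 and -0.16 after removal of the GC trend. Chadl, a chondroadherin-like gene, had 1.33 and 1.41 TPM in libraries labelled cKO and 1.42 and 0.875 TPM in the controls and did not pass either, with a direction that turned under the same settings.

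Most of the untested relatives were seen only or mainly in controls, at low levels. Epyc, encoding epiphycan of growth cartilage, had 0 reads in both cKO-labelled libraries against 64 and 27 in controls. Its pooled control level was 27-fold above the floor of 3 reads, again without the counting error of the controls. Ecm2 had 0.363 and 0.383 TPM in libraries labelled cKO and 1.27 and 1.76 TPM in the controls, and Podn, encoding podocan, had 0.276 and 0.509 against 1.17 and 1.12 TPM. Kera and Omd each had 0 reads in both cKO-labelled libraries against 3 reads and 1 read in controls. Nyx had 0.0379 and 0.175 TPM in libraries labelled cKO and 0.332 and 0.261 TPM in the controls, Podnl1 1 read over the 4 libraries together, and Chad 4 and 5 reads in libraries labelled cKO against 0 and 1 in controls.

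Of the 7 members, 6 lie in clusters with relatives, and Bgn lies apart on chromosome X. Optc, Prelp and Fmod share 151 kb of chromosome 1. Dcn, Lum, Kera and Epyc share 203 kb of chromosome 10, and Ecm2, Aspn, Omd and Ogn share 120 kb of chromosome 13. In all 11 clustered genes both cKO-labelled libraries lay below both controls, which, as above, held for 30.7% of detected genes. The nearest tested protein-coding genes outside the clusters, looked up after the members' values were known, did not pass the test. On chromosome 1, Atp2b4, a calcium pump gene, had 13.9 and 12.5 TPM in libraries labelled cKO and 11.3 and 11.8 TPM in the controls. Btg2, an antiproliferative gene 26.9 kb from the cluster, had 167.5 and 175.2 against 163.6 and 160.0 TPM. Btg1 and Atp2b1 on chromosome 10 are far off, at 857 and 1230 kb. Ippk and Nol8 on chromosome 13 lie 40.2 and 28.6 kb away, and limma adjusted p over the 6 neighbours ranged from 0.247 (Nol8) to 0.904 (Btg2). In Btg1, Atp2b1, Ippk and Nol8 both cKO-labelled libraries also lay below both controls, which held for 34.1% of tested genes. Nol8 had 7.61 and 9.32 TPM in libraries labelled cKO and 10.6 and 19.8 TPM in the controls. In Atp2b4 and Btg2 both cKO-labelled libraries lay above both controls, which held for 23.5% of tested genes.

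**Figure D3:**
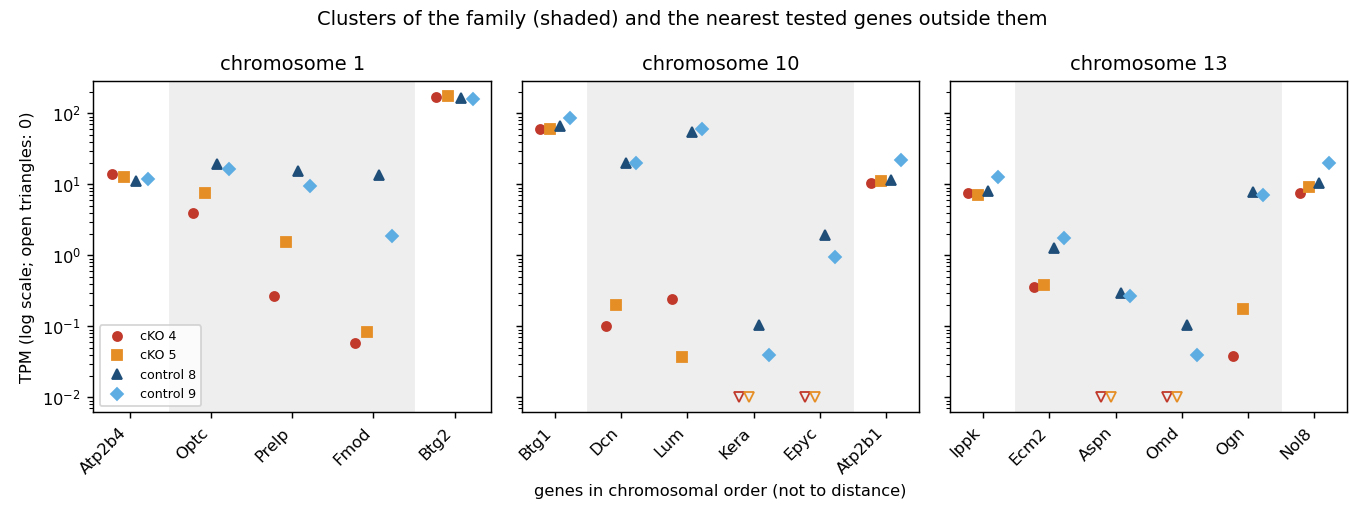
TPM on a log axis of the family genes in each cluster (shaded) and of the nearest tested gene on each side, in chromosomal order and not to distance, with open triangles for a level of 0. Shaded genes are lower in libraries labelled cKO (red circles, orange squares), while Btg2 beside Fmod has 167.5 and 175.2 TPM in them and 163.6 and 160.0 TPM in the controls.

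The collagens to which the family binds fell as well. Of 10 tested collagen genes 8 fell and none rose, with a median log2 fold change of -2.89 against -0.16 over all tested genes. With no filter on low TPM, the lower calls of this list came to 5. The fibrillar genes of type V, Col5a1 and Col5a2, were lowered less, at -1.29 (limma adjusted p = 0.0137) and -1.48 (0.00275). Col6a1, Col6a3 and Col6a2 of the microfibrillar type VI stood at -3.85, -3.02 and -2.76 (limma adjusted p of 1.62e-11 or less). Col2a1 of cartilage, at 37.0 and 62.7 TPM in libraries labelled cKO and 70.9 and 61.5 TPM in the controls, did not pass (-0.45, limma adjusted p = 0.434), nor did Col12a1 (-0.18).

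Set against these collagens, the members moved unequally. The sum of Col1a1, Col1a2 and Col3a1 was 5.19 and 2.0 TPM in libraries labelled cKO and 295.5 and 114.7 TPM in the controls. Bgn was 186% and 385% of that sum in libraries labelled cKO and 12.3% and 15.0% in controls. Lum was 4.63% and 1.85% in libraries labelled cKO and 18.8% and 52.5% in controls. Bgn thus fell less than the collagens and Lum more, in every pairing of libraries. The ranges of the groups overlapped for Dcn, at 1.94% and 10.1% in libraries labelled cKO and 6.82% and 17.5% in controls. They also overlapped for Fmod and Ogn. Prelp, at 5.23% and 77.8% in libraries labelled cKO and 5.26% and 8.16% in controls, stood far higher in replicate 5 than in the other 3 libraries.

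No tested gene for the enzymes that build the sugar chains passed the test. Of 26 genes of chondroitin, dermatan and keratan sulfate synthesis 23 were tested, and limma called 0 lower and 0 higher, with 3 lower and 2 higher at an unadjusted p under 0.05. Their median log2 fold change was 0.15. Dse, the epimerase that makes dermatan from chondroitin, had 1.64 and 2.06 TPM in libraries labelled cKO and 4.23 and 5.42 TPM in the controls (-1.03 ± 0.36, limma adjusted p = 0.0545). Dse passed the threshold under 5 of the 14 other settings that tested it, in which the limma adjusted p ranged from 0.0144 (without control replicate 8) to 1. Chpf, a chondroitin polymerising factor, had 50.6 and 48.3 TPM in libraries labelled cKO and 34.1 and 18.9 TPM in the controls (0.93, limma adjusted p = 0.0847). B4galt7, which adds the first galactose of the linker, had 53.0 and 67.4 against 38.1 and 25.6 TPM (0.92, limma adjusted p = 0.0879). Without control replicate 8, 5 genes of the list were called lower and 5 higher, median-of-ratios scaling called 2 higher, and limma-voom on recovered reads called 1 lower and 0 higher. These enzymes also serve the proteoglycans that neural cells make.

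Among 23 genes for ligands, receptors and processing enzymes of the family 18 were tested, of which 6 fell and none rose, with a median of -0.67. Bmp4, a growth factor that biglycan binds, had 0.0436 and 0.0806 TPM in libraries labelled cKO and 5.78 and 5.90 TPM in the controls (-2.69, limma adjusted p = 5.63e-13). Pcolce, the enhancer of procollagen processing, fell by 1.85 on the log2 scale (limma adjusted p = 2.48e-05), and Ccn4, a matricellular gene whose protein binds decorin, by 1.25 (0.00275). Tgfb2 and its receptor gene Tgfbr2 stood at -1.51 (0.00332) and -1.16 (0.0213), and the gelatinase gene Mmp2 at -1.22 (0.0273). The Tgfb2 call ended when replicate 4, 5 or 9 was left out. The list's lower calls came to 2 without replicate 4 and 1 without replicate 5, to 3 after quantile normalization, to 1 with no filter on low TPM and to 2 at a mean TPM of at least 5, and 2 genes were called higher without control replicate 8. Bmp1, the protease that trims the propeptides of several members, had 33.3 and 33.8 TPM in libraries labelled cKO and 34 and 21.9 TPM in the controls and did not pass (0.29, limma adjusted p = 0.641).

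Proteoglycans of other families went both ways. Of 16 genes 12 were tested, of which 1 fell and 1 rose, with a median of 0.55. Bcan, encoding brevican, had 0.845 and 2.68 TPM in libraries labelled cKO and 26.5 and 20.3 TPM in the controls (-3.22, limma adjusted p = 3.81e-14). Spock2, encoding testican of neural tissue, had 55.7 and 51.9 TPM in libraries labelled cKO and 31.7 and 19.3 TPM in the controls (1.09, limma adjusted p = 0.0341), a call that ended without either cKO-labelled replicate. Ncan, the neural lectican neurocan, had 265.6 and 248.5 against 170.1 and 104.2 TPM and did not pass (0.94, limma adjusted p = 0.0686). Median-of-ratios scaling or GC removal raised the higher calls of this list to 6. They came to 0 when replicate 4 or 5 was left out, to 7 when control replicate 8 was, and to 2 when control replicate 9 was. Lower calls numbered 2 with either control left out.

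Marker genes of cell types that could supply these transcripts were read beside the members. Of 16 tested meningeal markers 12 fell and none rose (median -1.75), and the 18 listed genes summed to 240.5 and 235.0 TPM in libraries labelled cKO and 552.2 and 383.9 TPM in the controls. The lower calls of this list came to 5 with no filter on low TPM. At a mean TPM of at least 5, which leaves out low markers, they came to 4. The transcription factor gene Tbx18 of meningeal and mural cells had 0.208 and 0.192 TPM in libraries labelled cKO and 8.40 and 8.01 TPM in the controls, and Foxc1 had 0.621 and 0.574 against 5.71 and 3.23 TPM. Crabp2, a retinoic acid binding protein gene at 108.6 and 110.6 against 139.1 and 124.3 TPM, did not pass. Crabp2 and Fn1 (61.1 and 55.7 against 130.5 and 91.1 TPM), neither called, made up most of the cKO-labelled sums. Other markers fell further than the sum, such as Cldn11 at 0.892 and 0.388 against 63.5 and 40.6 TPM. As a share of the meningeal sum, Lum was 0.1% and 0.0158% in libraries labelled cKO and 10.0% and 15.7% in controls. Bgn was 4.02% and 3.27% against 6.59% and 4.49%. These shares therefore do not set the members against the markers that fell most.

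Vessel markers were mostly not called. Of 13 pericyte markers 4 fell and none rose (median -0.31), and they summed to 138.2 and 131.7 TPM in libraries labelled cKO and 256.8 and 152.0 TPM in the controls. Of 12 endothelial markers 2 fell and none rose (median -0.50), with sums of 243.2 and 216.3 against 348.7 and 219.8 TPM. The macrophage list had 4 of 11 lower and none higher (median -0.91, sums of 95.5 and 132.6 against 288.7 and 124.1 TPM). C1qa (27.3 and 36.5 TPM) and C1qb (34.9 and 51.0 TPM), neither called, gave most of the cKO-labelled sums. The macrophage sums thus say little of the 4 lower genes. Choroid plexus markers fell in 8 of 8 tested genes (median -3.81), and summed to 7.63 and 10.3 TPM in libraries labelled cKO and 2012 and 2201 TPM in the controls. Of 5 tested genes of dermis and head mesenchyme 3 fell and 1 rose, Dpt was at 0 in all 4 libraries, and Pax3, Pax9 and Tnmd were at 0 in both cKO-labelled libraries. These 3 were scarce in controls too, with 34 and 9 reads for Pax3, 2 and 0 for Pax9 and 4 and 2 for Tnmd. Only 2 of 13 genes of skull cartilage and bone reached the minimum for the test, and neither passed. The others were too low to test. In Matn1, Matn3, Cnmd, Runx2, Sp7 and Phex both cKO-labelled libraries lay below both controls, which held for 30.7% of detected genes. Cnmd had 1 and 0 reads in libraries labelled cKO against 20 and 22 in controls, and Sp7 had 1 and 5 against 45 and 9. In Acan, Col9a1, Ibsp, Bglap and Dlx3 the groups overlapped. With no filter on low TPM, 1 gene of that list was called lower. Markers of the labelled tissue were present in all libraries. The 12 genes of cortical progenitors and neurons summed to 7532 and 6444 TPM in libraries labelled cKO and 4963 and 3863 TPM in the controls. Tubb3 alone gave 5750 and 4485 TPM in libraries labelled cKO and 3148 and 1752 TPM in the controls, so the sums lean on 1 gene. Of the 12 genes 6 had a negative fold change, among them Emx2 and Pax6 (22.5 and 33.8 against 36.6 and 58.7 TPM). Limma called 1 of the 12 lower (Emx2, -1.41) and none higher. Quantile normalization, no filter on low TPM and a mean TPM of at least 5 each left 0 endothelial calls. Several of these counts also moved with 1 library. Without cKO-labelled replicate 4 there were 2 lower pericyte calls and 0 endothelial ones, and endothelial calls were 0 without replicate 5 too. Without control replicate 8, 3 pericyte, 1 endothelial, 2 macrophage and 4 cortical genes were called higher and 4 endothelial and 2 cortical genes lower. Without control replicate 9, 7 macrophage and 2 cortical genes were called lower and 2 cortical genes higher. The Emx2 call ended without either cKO-labelled replicate. Of the dermal list 1 lower call was left without replicate 5, and the higher call, Dlk1, was lost when replicate 4, 5 or 9 was left out. The part of tissue make-up in the members' fall was not tested.

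**Figure D4:**
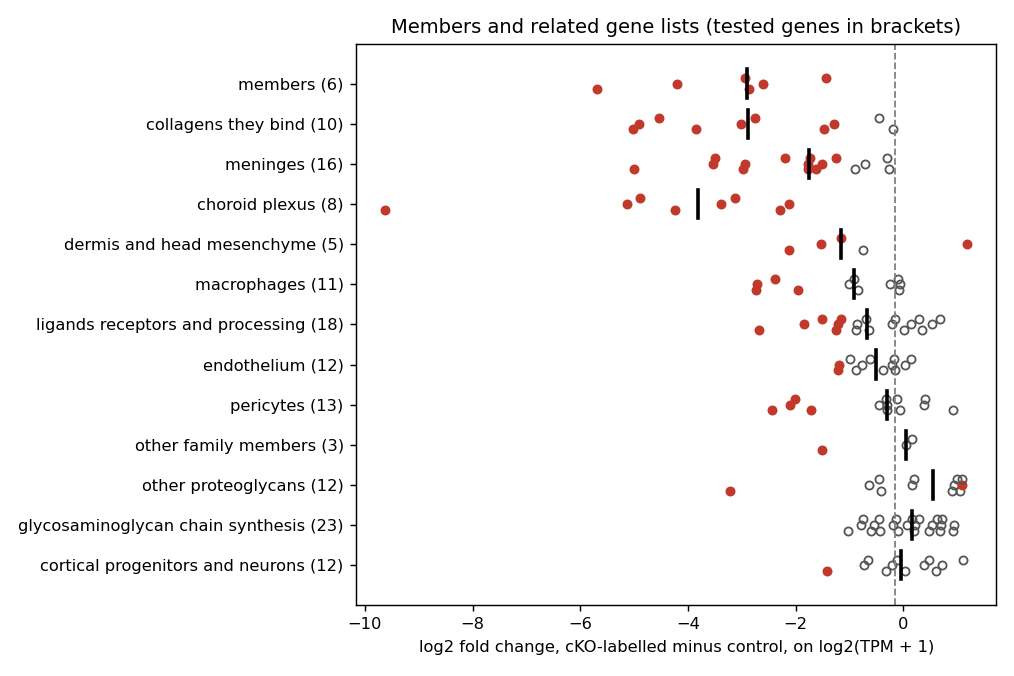
Log2 fold changes (cKO-labelled minus control) of the tested genes of each list, 1 point a gene, filled where limma's adjusted p is under 0.05. Black bars are list medians (-2.90 for the members, -2.89 for collagens, 0.15 for sugar chain synthesis) and the dashed line is the median of all tested genes, -0.16.

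For each tested member, the genes of most similar profile were those of smallest root mean square distance between centred log2(TPM + 1) values over the 4 libraries, which rests on 4 values and says nothing of a shared function. For Lum they were Clic6 (0.311), Cldn11 (0.443) and Dynlrb2 (0.480). Clic6, an ion channel gene of the choroid plexus, had 0.276 and 0.0232 TPM in libraries labelled cKO and 32.8 and 47.0 TPM in the controls. For Dcn they were the Wnt ligand genes Wnt3a (0.174) and Wnt2b (0.222), known from the cortical hem, and the folate receptor gene Folr1 (0.232). They were for Ogn Gpc3 (0.0677), Krt18 (0.0702) and Tbx18 (0.0771), and for Prelp Flnc (0.179), Bcan (0.208) and Prph (0.210). For Bgn they were Col16a1 (0.0723), Col5a1 (0.0757) and Ms4a4a (0.0770), and for Fmod Fcgrt (0.220), Ifitm1 (0.254) and Slc22a6 (0.291). Bgn and Col5a1 shared a high value in control replicate 8 and a moderate level in libraries labelled cKO, where Col5a1 had 11.2 and 8.81 TPM against 36.8 and 18.0 TPM in the controls. Within the family, Prelp and Ogn were the most similar (0.348) and Lum and Bgn the least (2.17).

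**Figure D5:**
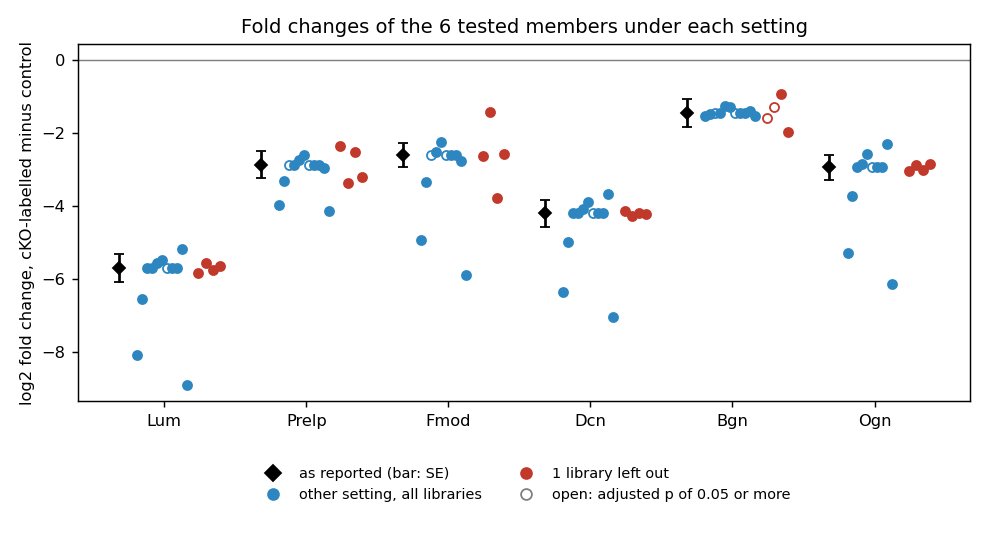
Log2 fold changes (cKO-labelled minus control) of the 6 tested members as reported (black diamonds with SE), under other settings on all libraries (blue) and with 1 library left out (red), open where the adjusted p is 0.05 or more. All values lie below 0, between -8.90 (Lum, limma-voom on recovered reads) and -0.92 (Bgn, without control replicate 8).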

How the data were processed

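Gene levels came from a table of TPM values that the authors deposited, with 1 column for each library. Per the submitters' processing notes, reads were aligned with STAR to mm10. Not given in the sources used here are the read counter, strand setting, annotation release and TPM tool. TRIzol-extracted total RNA was made into stranded libraries, per the labels. Of the 40630 genes, 40227 IDs matched GENCODE M21. Symbols turned into dates (27) were restored from their IDs. Reads were recovered as TPM times merged exon length, whole within 0.05 reads, for all genes but 349 without a length.

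Differences of mean log2(TPM + 1) were tested by limma (version 3.58.1, R 4.3.3) for the 15107 genes whose mean TPM reached 1, with an intensity trend, two-sided, adjusted by Benjamini-Hochberg over all of them and called under 0.05. An exact permutation of 2 libraries against 2 could not reach that threshold. The script was tested on simulated data. Intervals of read ratios are exact and conditional on the total, and the floor for 0 reads is 3 reads.

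The members and lists were chosen with earlier results of these data known. Named genes were the members, their relatives, up to 4 genes of smallest p and 2 of highest level in each list, Upf2 and the 3 closest profiles of each member. Named outside this rule, after their values were seen, were Cenpp, Xist, the 6 cluster neighbours and, mostly to complete a list's count, Bmp1, Col12a1, Col5a2, Col6a2, Col6a3, Dpt, Foxc1, Mmp2, Pax3, Pax9, Tgfbr2 and Tnmd. So were the untested skeletal genes Acan, Bglap, Cnmd, Col9a1, Dlx3, Ibsp, Matn1, Matn3, Phex, Runx2 and Sp7. Protein sequences were not analysed here. Alternatives covered pseudocounts of 0.1 and 0.5, filters, scaling, moderation, removal of a GC trend, limma-voom on recovered reads and each library left out.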

Additional observations from a re-analysis of the deposited data

How the results depend on the processing

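The fold changes of the 6 tested members kept their direction under every alternative that tested them (15, and 14 for Fmod and Ogn, which a mean TPM of at least 5 left out). Leaving out 1 library cannot turn a direction where groups do not overlap. Lum ranged from -8.90 to -5.16, Dcn from -7.03 to -3.68, Ogn from -6.12 to -2.28, Prelp from -4.14 to -2.36, Fmod from -5.89 to -1.42 and Bgn from -1.96 to -0.92. The number of members called, 6 as reported, was 3 with no filter on low TPM (Dcn, Lum and Ogn), 0 without moderation, and 5 to 6 with 1 library left out, Bgn being lost without either cKO-labelled replicate. The 1229 calls over all genes became 178 with no filter, 642 at a mean TPM of at least 5 and 0 without moderation, and ranged from 176 to 7379 with 1 library left out. Of the 1229, 438 were higher and 791 lower, against 846 and 658 after median-of-ratios scaling and 714 and 535 after quantile normalization, with the median of all genes at 0.02 and -0.01. Tsku, at 0.04, turned to -0.16 after GC removal and ranged from -0.42 (without control replicate 9) to 0.50 (without control replicate 8) with 1 library left out, and Chadl, at 0.15, turned to -0.36 and ranged from -0.028 to 0.34 without the same libraries. The cause of these changes was not tested. Of 48 named genes that passed, 23 passed under every alternative that could fit them except the one without moderation. Values resting on 1 to 13 reads, as for Lum, Dcn, Ogn and Fmod in the cKO-labelled libraries, limit how finely those levels can be told apart. No paired analysis was possible because the groups share no replicate numbers.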
